A study of Mus musculus with 9 samples.

Results

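The genes described here are 10 mouse genes of antigen presentation by the major histocompatibility complex (MHC), read from their rows in a count table of 47643 genes. They were chosen by symbol for their role in this pathway, with earlier results of these data known. The class I pathway is represented by 7 of them, H2-K1, H2-D1, B2m, Tap1, Tap2, Tapbp and Nlrc5, and the class II pathway by 3, H2-Aa, Cd74 and Ciita. All 10 had enough counts to be tested, among 18205 genes that did. The cells were long-term hematopoietic stem cells (LT-HSCs), sorted as Lin-cKit+Sca1+Flk2-CD48-CD150+ from the bone marrow of recipients of WT, δKO or TKO marrow, with 3 RNA-seq libraries per genotype.

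WT donors carried the Mx1-Cre transgene and no targeted allele (WT;Mx1-Cre). TKO donors carried Mx1-Cre together with floxed Pik3ca (lox/lox), floxed Pik3cb (lox/lox) and a germline deletion of Pik3cd (Pik3cd-/-), and δKO donors were littermates with these same alleles but without Cre. Pik3ca, Pik3cb and Pik3cd encode p110α, p110β and p110δ, catalytic subunits of class I phosphoinositide 3-kinase. TKO and δKO cells therefore shared the loss of Pik3cd, whereas TKO and WT cells shared the Cre transgene. Donor marrow on the C57BL/6 background (CD45.2) was transplanted without competitor cells into lethally irradiated B6.SJL recipients (CD45.1). All groups received pIpC (2 injections of 250 μg, 48 hours apart), an interferon-inducing RNA mimic that switches on the Mx1 promoter, and marrow was taken 4 weeks later. The 7 recipients of a group were pooled before staining, so the p-values below measure the spread between libraries and not between mice.

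Class I molecules sit on nearly all nucleated cells and show peptides from proteins made inside the cell to CD8+ T cells. Their heavy chains (H2-K1, H2-D1) need the light chain B2m and a peptide, which the transporter Tap1/Tap2 carries into the endoplasmic reticulum and tapasin (Tapbp) helps to load, and Nlrc5 is the transactivator of these genes. Class II molecules are typical of B cells, dendritic cells and macrophages and show peptides from endosomes to CD4+ T cells. H2-Aa encodes the alpha chain of I-A, Cd74 the invariant chain that guards its groove until the endosome, and Ciita the class II transactivator. Interferon raises both pathways, and class II genes are known to be expressed by hematopoietic stem and progenitor cells as well.

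The promoters of the members are shown because Nlrc5 and Ciita do not bind DNA themselves but act through a shared arrangement of promoter boxes, the X and Y boxes. RefSeq promoters of GRCm38.p6 (250 bases before to 50 after a start site) were read for 6 of the 10 members. Those of Tap2, Nlrc5, Cd74 and Ciita were not read. In the stretches below the capitals mark TGACG, the core of the X2 box, and ATTGG, the inverted CCAAT of the Y box. In H2-K1, H2-D1 and H2-Aa they also mark a κB site (GGG and TCCC 3 bases apart), and in H2-K1 and H2-D1 a match to GAANNGAAA, an interferon-stimulated element, on the opposite strand.
H2-K1, chr17:34000354-34000468, minus strand: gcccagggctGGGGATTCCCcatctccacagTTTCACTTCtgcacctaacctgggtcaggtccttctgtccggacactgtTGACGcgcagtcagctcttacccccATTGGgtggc
H2-D1, chr17:35262913-35263027, plus strand: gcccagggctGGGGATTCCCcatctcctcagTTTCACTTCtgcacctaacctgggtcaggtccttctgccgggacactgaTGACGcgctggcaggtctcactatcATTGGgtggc
B2m, chr2:122147529-122147643, plus strand: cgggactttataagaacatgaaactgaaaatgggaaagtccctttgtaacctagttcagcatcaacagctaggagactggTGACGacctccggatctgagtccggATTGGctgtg
H2-Aa, chr17:34287862-34287977, minus strand: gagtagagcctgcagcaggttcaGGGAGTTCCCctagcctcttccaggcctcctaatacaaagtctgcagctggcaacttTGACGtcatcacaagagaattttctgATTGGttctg

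The starts of TGACG and ATTGG lay 25 bases apart in H2-K1, H2-D1 and B2m and 26 bases apart in H2-Aa. This pair at 25 or 26 bases occurred in 54 of 32851 RefSeq promoters (0.164%). The spacing was noticed after the sequences had been read, so the share describes how common the arrangement is and tests nothing. Among 68 symbols of the members and the wider lists with a promoter, H2-M3 was the other gene with the pair. Tap1 held TGACG and CCAAT without this spacing, and Tapbp held CCAAT alone. Searched on both strands, CCAAT was present in 37.4% of all promoters, TGACG in 20.8%, GAANNGAAA in 7.52% and the κB site in 5.55%, and the κB matches on the 2 strands overlap each other. The stretches of H2-D1 and H2-K1 were identical at 104 of 115 bases (90.4%), against 47 of 115 (40.9%) for B2m and H2-K1. The patterns have a fixed length, so longer forms such as gaaactgaaa and gggaaagtccc in the B2m stretch were neither counted nor marked. These matches describe letters and not binding.

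Depth was 31300343 to 60386097 counts per library, and 18180 to 22703 genes had at least 1 count. The fewest genes were detected in δKO replicate 1 (18180), in a δKO library (18500) whose number matches none of the labels, called the unnumbered δKO library below, and in TKO replicate 2 (19703). The 15 LT-HSC marker genes were present in each genotype, with sums of 2454 to 3038 CPM in TKO, of 1796 to 3910 CPM in δKO and of 1701 to 2163 CPM in WT, where CPM is edgeR's count relative to library size after TMM scaling. Transcripts of Pik3cd reached 98.2 to 139 CPM in WT libraries, 38.5 to 91.2 CPM in δKO libraries and 71.2 to 73.5 CPM in TKO libraries, and those of Pik3cb 44.6 to 63.6, 33.2 to 101 and 25.5 to 33.9 CPM. Pik3ca ranged from 45.8 to 65.0 CPM in WT and from 52.8 to 68.0 in TKO, although counts over whole genes do not show the loss of single exons. Within each genotype the libraries differed far beyond counting error, with a chi-square per gene of 128 to 533.

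Class I presentation was strongly transcribed in these cells. Per kilobase of exon, B2m reached 1507 CPM as the mean of 9 libraries, which ranked 16 among 18205 genes, followed by H2-K1 at 403 (rank 56) and H2-D1 at 209 (rank 110). These levels did not overlap between the 3 genes in any library. Cd74 came next, at 38.3 CPM per kilobase, then Tapbp at 26.1, Tap1 at 18.0, Nlrc5 at 14.3, H2-Aa at 11.7, Tap2 at 4.94 and Ciita at 0.51. From Cd74 downward the libraries of each gene overlapped those of the next, although Tapbp lay above Tap1 within each of the 9 libraries. The peptide transporter and the transactivators were present at levels far under those of the class I molecules.

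**Figure D1:**
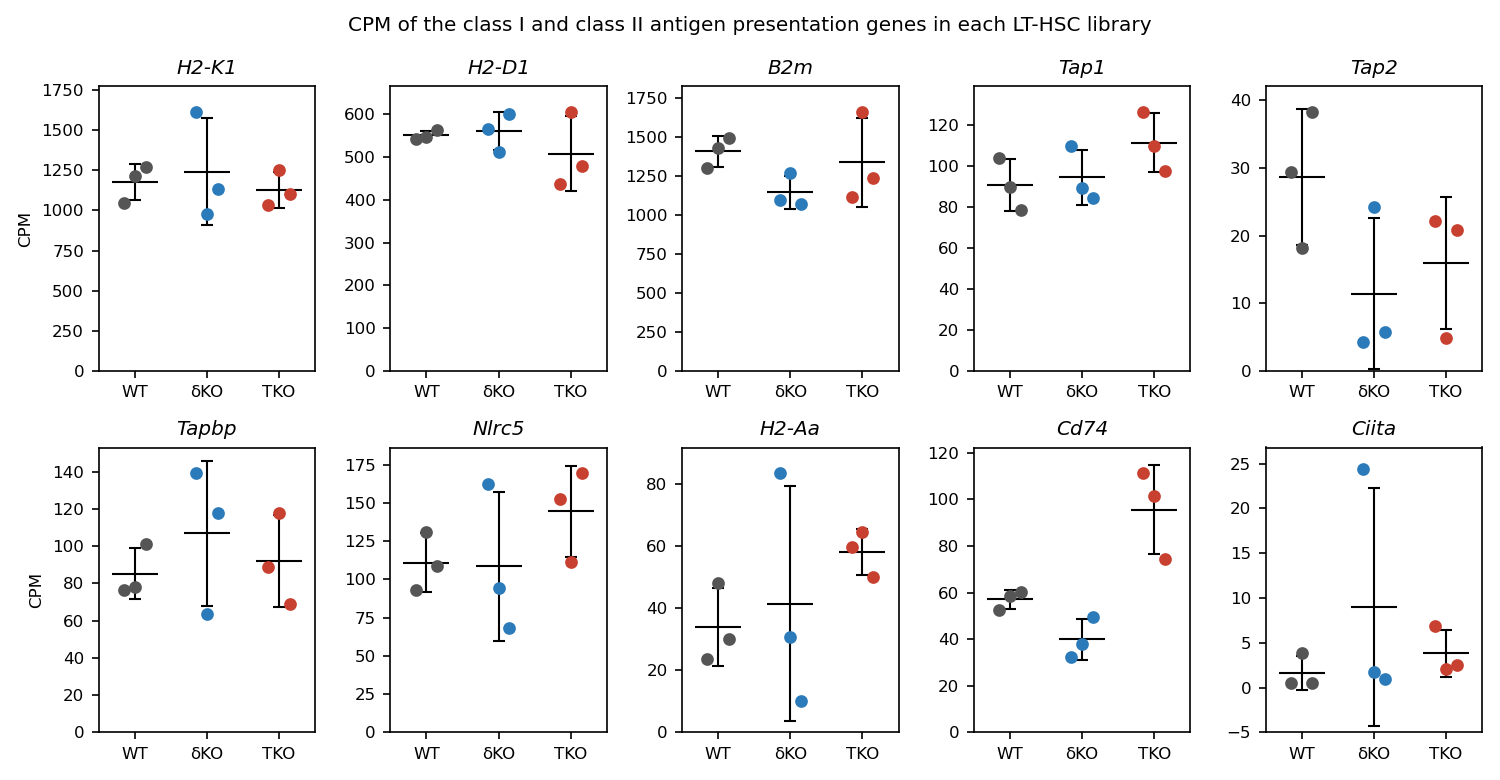
CPM (linear axis) of the 10 genes in each of the 9 LT-HSC libraries, with WT in grey, δKO in blue and TKO in red; points are libraries, bars the mean and whiskers the SD of 3 libraries. Cd74 is the gene in which the 3 TKO libraries (74.3 to 111 CPM) lie above the other 6 (32.4 to 60.1 CPM), while H2-K1, H2-D1 and B2m overlap between TKO and the other genotypes and 1 δKO library sets the mean of Ciita.

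Cd74, the invariant chain, was the member that differed most clearly between genotypes. The gene (ENSMUSG00000024610, chromosome 18 of mm10, 60803848 to 60812652) was measured at 52.6, 58.7 and 60.1 CPM in the WT libraries, at 32.4, 38.1 and 49.6 CPM in the δKO libraries (replicates 1 and 2 and the unnumbered library, the order used throughout) and at 111, 102 and 74.3 CPM in the TKO libraries. The 3 TKO libraries were the highest of the 9, the 3 δKO libraries were the lowest, and no genotype overlapped another. TKO averaged 95.7 ± 19.1 CPM, WT 57.1 ± 3.95 CPM and δKO 40.0 ± 8.75 CPM (SD, n = 3). Genes whose TKO libraries all lay above the other 6 libraries made up 2.12% of the genes tested (386 of 18205), and Cd74 was the 1 member among them.

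Cd74 was called by DESeq2 between TKO and δKO and was not called by edgeR in any comparison. A call needed an adjusted p under 0.05 over all genes and a change of more than 2-fold. Between TKO and δKO its log2 fold change (log2FC) was 1.26 (standard error 0.282, 95% interval 0.64 to 1.88). The unadjusted p was 0.000859, and edgeR's quasi-likelihood test with adjustment by Benjamini and Hochberg gave 0.465. Cd74 ranked 16 by p among 18205 genes in a comparison in which edgeR called 0 genes (0.0%), 4.6% of genes were higher in TKO with an unadjusted p under 0.05, and 6.98% had all TKO libraries above all δKO libraries. DESeq2, the tool named in the study's methods, gave 1.24 with an adjusted p of 0.00140 on all 9 libraries and 1.24 with an adjusted p of 0.0457 on the groups compared, and so called Cd74 with the 1.98% and 1.07% of genes that it called higher in TKO. Counts were simulated for TKO against WT with edgeR's own estimates of the spread, a setting that can favor edgeR. In them a far larger share of DESeq2's calls than of edgeR's fell on genes simulated without a change. DESeq2's calls and adjusted p-values in that comparison may therefore be less reliable than their threshold implies. The other comparisons were not simulated, so the reliability of the call of Cd74 between TKO and δKO was not tested. Over 17 alternatives the log2FC stayed between 1.12 and 1.49 and the adjusted p ranged from 0.00140 to 0.946. With the 3 libraries of fewest genes detected left out, an alternative chosen after seeing the data, δKO was 1 library (replicate 2), assumed to vary like the other genotypes, and the value was 1.28.

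Against WT the difference in Cd74 was smaller. TKO exceeded WT by a log2FC of 0.74 (standard error 0.279, 95% interval 0.13 to 1.36), with an unadjusted p of 0.0212 and an adjusted p of 1.00 by edgeR's quasi-likelihood test (Benjamini-Hochberg). In this comparison 0.00549% of genes were called (1 gene), 1.68% were higher with an unadjusted p under 0.05 and 6.88% had all TKO libraries above all WT libraries. DESeq2 called 0.353% of genes higher on all 9 libraries and 1.43% on the groups compared, Cd74 not among them. The value ranged from 0.62 to 0.90 over its alternatives, and the adjusted p from 0.0533 to 1.00. In δKO Cd74 was lower than in each WT library, with a log2FC of −0.51 (standard error 0.279) that did not pass the test (unadjusted p = 0.0916), in a comparison in which 7.39% of genes had all δKO libraries below all WT libraries, 3.36% were lower with an unadjusted p under 0.05 and 0.00549% were called. These 3 comparisons share libraries with one another and are given side by side.

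H2-Aa, the alpha chain of I-A, also lay above WT in the TKO libraries, by a difference that did not pass the test. The gene (ENSMUSG00000036594, chromosome 17, 34282744 to 34287823, minus strand) was measured at 23.7, 48.0 and 30.1 CPM in WT, at 83.3, 30.8 and 9.95 CPM in δKO and at 59.7, 64.5 and 49.9 CPM in TKO. Each TKO library lay above each WT library, whereas the δKO libraries spanned both other genotypes and held the highest and the lowest value of the 9. Against WT the log2FC of TKO was 0.77 (standard error 0.592, 95% interval −0.52 to 2.07) and against δKO 0.49 (standard error 0.590), and neither passed the test (unadjusted p = 0.216 and 0.423). The value against δKO ranged from 0.024 without the unnumbered δKO library to 1.50 without δKO replicate 1.

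Ciita, the transactivator without which class II genes stay silent in most cells, was scarce. The gene (ENSMUSG00000022504, chromosome 16, 10480059 to 10528418) was measured at 0.55, 3.83 and 0.50 CPM in WT, at 24.4, 1.73 and 0.96 CPM in δKO and at 6.83, 2.09 and 2.56 CPM in TKO. The genotypes overlapped, and δKO replicate 1, with 611 counts against 21 to 357 in the other libraries, stood apart. The same library had the highest level of H2-Aa and the lowest of Cd74. Its log2FC in δKO against WT was 2.46 (standard error 1.31) and went to −0.27 without δKO replicate 1, and in TKO against δKO it went from −1.23 (standard error 1.26) to 1.50. Over 9 libraries the 3 class II members did not move as one, since the δKO library with the most Ciita and H2-Aa had the least of the invariant chain.

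Other genes of the class II pathway were read from a list of 15 symbols (older and newer names of 2 genes included), of which 13 were found in the table and 12 had enough counts. Against δKO 10 of the 12 were higher and 2 lower, with a median log2FC of 0.71, where the median of all genes tested was −0.06. Against WT 8 were higher and 4 lower (median 0.25, all genes 0.02), and in δKO against WT 4 were higher and 8 lower (median −0.40, all genes 0.05). With edgeR no gene of the list was called, 1 was higher with an unadjusted p under 0.05 in TKO against δKO (4.6% of all genes), 0 in TKO against WT (1.68%), and 2 were lower with one in δKO against WT (3.36%). DESeq2 on all 9 libraries gave 1 gene of the list an adjusted p under 0.05 in TKO against δKO, H2-DMb2 (0.00552), and 1 in δKO against WT, March1 (0.0407). Of all genes it called 1.98% higher in TKO than in δKO and 0.678% lower in δKO than in WT.

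H2-Eb1, the beta chain of I-E, was measured at 5.61, 15.95 and 9.46 CPM in WT, at 12.8, 4.38 and 0.66 CPM in δKO and at 15.7, 20.4 and 21.9 CPM in TKO. Its TKO libraries lay above its δKO libraries and overlapped WT, where 1 WT library reached 15.95 CPM. Against δKO the log2FC was 1.70 (standard error 0.851, unadjusted p = 0.0691). H2-Ab1, the beta chain that pairs with H2-Aa, is named for this partnership after its values had been seen. TKO held 48.3 ± 14.2 CPM of it, δKO 31.5 ± 16.1 and WT 34.7 ± 12.9 (SD, n = 3), and the genotypes overlapped.

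The genes with the smallest p in this list were near the detection limit in the δKO libraries, at 1 to 16 counts for H2-DMb2 and 5 to 26 for March1. H2-DMb2, a chain of the DM molecule that exchanges peptides on class II, lay at 0.53 to 5.06 CPM in TKO against 0.04 to 0.28 CPM in δKO and 0.36 to 2.30 CPM in WT. March1, a ubiquitin ligase that removes class II from the surface, lay at 0.51 to 2.56 CPM in TKO against 0.18 to 0.46 CPM in δKO and 1.61 to 2.20 CPM in WT. For H2-DMb2 the log2FC was 4.69 in TKO against δKO (standard error 1.47, unadjusted p = 0.00799) and −3.39 in δKO against WT, where that of March1 was −2.79 (standard error 1.14, unadjusted p = 0.0315). Ctsl, an endosomal protease, was lower in each TKO library (27.7 to 37.4 CPM) than in the other 6 (37.8 to 52.7 CPM), a pattern in 1.69% of genes, with a log2FC of −0.32 against WT (unadjusted p = 0.298).

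**Figure D2:**
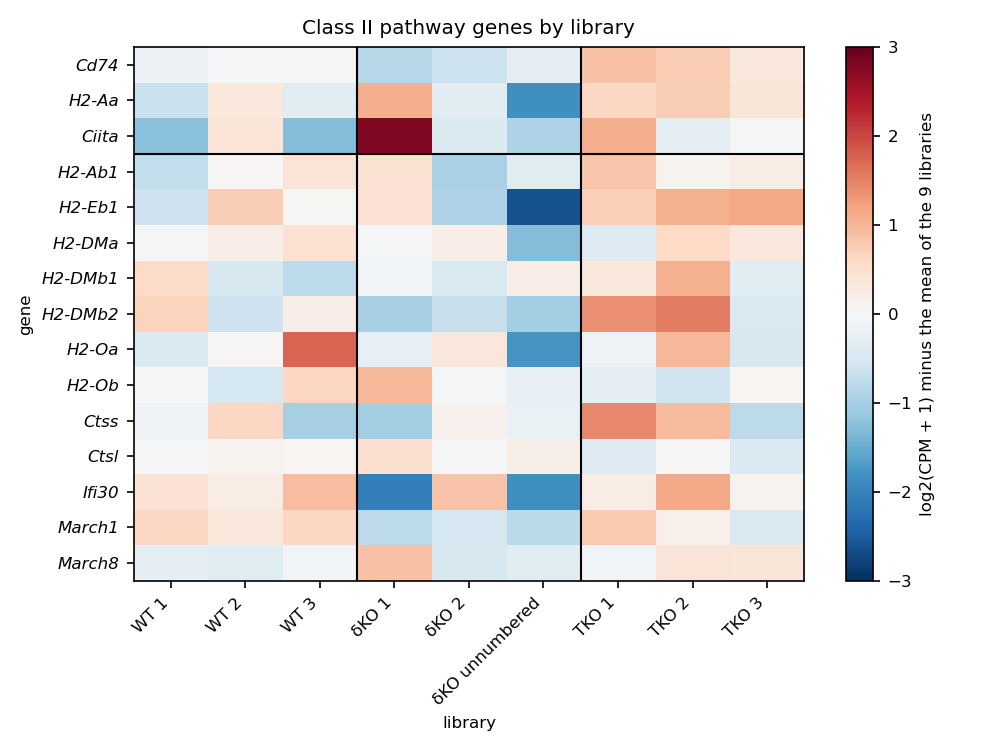
Class II pathway genes (rows; the 3 members above the line) in the 9 LT-HSC libraries (columns; WT, δKO and TKO divided by lines), as log2(CPM + 1) minus the mean of the 9 libraries, with red above and blue below that mean. Cd74 is red in the 3 TKO libraries and blue in the 3 δKO libraries, while Ciita is darkest red in δKO replicate 1.

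Markers of other cell types were read from lists, since B cells, dendritic cells and macrophages carry class II. Of 12 B cell genes, 10 had a mean under 1 CPM, Cd22 was at 0 in all 9 libraries and Ms4a1 did not exceed 0.02 CPM. Their sum was 4.83 to 15.1 CPM in TKO, 12.8 to 13.2 CPM in δKO and 9.90 to 12.8 CPM in WT, with Cd79b the most abundant. The 12 dendritic cell genes summed to 85.0 to 142 CPM in TKO, 56.2 to 139 CPM in δKO and 122 to 201 CPM in WT, and 7 of the 12 had a mean under 1 CPM. Most of this sum came from Cst3 (39.3 to 99.2 CPM over the 9 libraries) and Flt3 (7.06 to 115 CPM), while Batf3 did not exceed 0.05 CPM and Itgax did not exceed 2.10 CPM. Of the 14 monocyte and macrophage genes the sum was 205 to 736 CPM in TKO, 203 to 692 CPM in δKO and 540 to 1198 CPM in WT. Lyz2 (111 to 1020 CPM over the 9 libraries), Ly6c2 (3.79 to 292 CPM), Cd68 (24.8 to 59.2 CPM) and Vcam1 (0.38 to 140 CPM) were its most abundant genes, while C1qa, C1qb and C1qc did not exceed 0.70 CPM. The part of these lists in the levels of the class II genes was not tested. The sum of 10 neutrophil genes was 168 to 3247 CPM in TKO, 276 to 12124 CPM in δKO and 5257 to 12283 CPM in WT. In TKO against WT all 10 were lower (median log2FC −2.97), 6 of them with an unadjusted p under 0.05 by edgeR, where 2.5% of all genes were. The sum of 10 T and NK cell genes was 25.7 to 70.3 CPM in TKO, 3.99 to 195 CPM in δKO and 80.6 to 232 CPM in WT, mostly from Nkg7, with Cd3e, Cd3g and Cd8a at 0 throughout. The sum of the LT-HSC genes given above was higher in each TKO library than in each WT library, as Cd74 was, and its part in the level of Cd74 was not tested. In bulk RNA, more cells with a transcript and more transcript per cell cannot be told apart.

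The summed level of a list of 14 interferon-stimulated genes was also higher in TKO than in WT, and by edgeR 0 of them had an adjusted p under 0.05. Their sum was 261 to 365 CPM in TKO, 138 to 300 CPM in δKO and 164 to 233 CPM in WT, so that TKO lay above WT without overlap and overlapped δKO. In TKO against δKO 10 of the 14 were higher (median log2FC 1.15), 5 of them with an unadjusted p under 0.05 by edgeR, where 4.6% of all genes were higher with such a p and the median of all genes was −0.06. In TKO against WT 11 were higher and 3 lower (median 0.74). Of these, 1 was higher with such a p, where 1.68% of all genes were and the median of all genes was 0.02. Their part in the level of the class II genes was not tested.

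The class I heavy chains differed between genotypes by less than the spread of the libraries. H2-K1 (ENSMUSG00000061232, chromosome 17, 33996017 to 34000347, minus strand) was measured at 1049.5, 1215 and 1269 CPM in WT, at 1614, 978 and 1132 CPM in δKO and at 1032, 1251 and 1104 CPM in TKO. The genotypes overlapped, and δKO replicate 1 held the highest and δKO replicate 2 the lowest value. TKO differed from WT by a log2FC of −0.06 (standard error 0.227, 95% interval −0.56 to 0.44) and from δKO by −0.14 (95% interval −0.63 to 0.36), and δKO differed from WT by 0.08 (95% interval −0.42 to 0.57). The sign of the last 2 changed without δKO replicate 1 (to 0.094 and −0.16), and also with upper-quartile factors, which moved the median of all genes by 0.14 and −0.15. A 2-fold change in either direction lay outside each of these intervals.

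H2-D1 was the steadiest member. The gene (ENSMUSG00000073411, chromosome 17, 35262730 to 35267499) was measured at 543, 546 and 562 CPM in WT, at 566, 513 and 602 CPM in δKO and at 438, 606 and 479.6 CPM in TKO. The WT libraries varied by an SD of 10.4 CPM, and the TKO libraries lay on both sides of them. Over the 9 libraries its coefficient of variation was 10.2%, and 2.43% of the 411 genes within 2-fold of its mean level varied less, their median being 22.5%. TKO differed from WT by a log2FC of −0.12 (standard error 0.201, 95% interval −0.56 to 0.32) and from δKO by −0.14.

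B2m, the light chain shared by all class I molecules, was lower in δKO than in WT without overlap. The gene (ENSMUSG00000060802, chromosome 2, 122147686 to 122153083) was measured at 1300.0, 1428 and 1493 CPM in WT, at 1096, 1265 and 1068 CPM in δKO and at 1115, 1659 and 1237 CPM in TKO. The TKO libraries spanned both other genotypes, with TKO replicate 2 the highest of the 9. Against WT the log2FC of δKO was −0.30 (standard error 0.210, 95% interval −0.76 to 0.16, unadjusted p = 0.180), which did not pass the test, and 7.39% of genes lay apart in that direction.

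Other class I heavy chain genes, the Q, T and M genes with Mr1 and Cd1d1, were read from a list of 18 symbols, of which 17 were found and 12 had enough counts. In TKO 9 were higher and 3 lower than in WT (median log2FC 0.38), and 7 were higher and 5 lower than in δKO (median 0.40). Against δKO 3 had an unadjusted p under 0.05, all higher in TKO, where 4.6% of all genes were, and against WT 0 had one, where 1.68% of all genes were higher. These 3 were H2-T23 at 1.01 (standard error 0.324, unadjusted p = 0.00919), H2-T22 at 1.74 (standard error 0.536, unadjusted p = 0.00742) and H2-T10 at 2.05 (standard error 0.876, unadjusted p = 0.0381) on the log2 scale. By edgeR 0 genes of the list were called, and DESeq2 on all 9 libraries gave H2-T22 an adjusted p of 0.0456. This DESeq2 fit called 1.98% of all genes higher in TKO than in δKO.

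H2-T23 encodes Qa-1, a nonclassical class I molecule that natural killer cells read. It was measured at 32.9, 61.8 and 59.7 CPM in WT, at 38.0, 44.1 and 28.8 CPM in δKO and at 79.8, 80.8 and 63.0 CPM in TKO. As for Cd74, the 3 TKO libraries were the highest of the 9. H2-T22 and H2-T10, near copies that bind no peptide and are seen by γδ T cells, shared 35.8% and 31.6% of their 50-base stretches with other genes, mostly with each other, so their separate levels are uncertain, and H2-T23 shared 14.96%. Of the members, H2-D1 shared 14.3% and H2-K1 8.11% of such stretches with other genes, and B2m, Nlrc5, Cd74 and Ciita shared 0.

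Nlrc5 and the transporter were compared next. Nlrc5 (ENSMUSG00000074151, chromosome 8, 94434356 to 94527272) was measured at 92.9, 131 and 108.5 CPM in WT, at 162, 94.3 and 68.5 CPM in δKO and at 152, 112 and 169 CPM in TKO. TKO held the highest library, yet the genotypes overlapped, and the log2FC was 0.38 against WT (standard error 0.325) and 0.41 against δKO (standard error 0.325), with unadjusted p of 0.263 and 0.228.

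Tap1 (ENSMUSG00000037321, chromosome 17, 34187553 to 34197225) was measured at 104, 89.9 and 78.6 CPM in WT, at 109.7, 89.1 and 84.3 CPM in δKO and at 126, 109.8 and 97.6 CPM in TKO. Its genotypes overlapped, and TKO exceeded WT by a log2FC of 0.29 (standard error 0.241). Tap2 (ENSMUSG00000024339, chromosome 17, 34203527 to 34216321), the partner chain of the same transporter, was measured at 29.3, 18.2 and 38.3 CPM in WT, at 4.27, 24.2 and 5.75 CPM in δKO and at 22.2, 4.80 and 20.9 CPM in TKO. It was low in both δKO replicate 1 and the unnumbered δKO library as well as in TKO replicate 2, the libraries with the fewest genes detected, and at 18.2 CPM or more in the other 6. Of all genes tested, 4.68% had all 3 of these libraries below the other 6. Against WT the log2FC of Tap2 was −0.84 for TKO (standard error 0.736) and −1.32 for δKO (standard error 0.743, unadjusted p = 0.101). The first went to −0.41 without TKO replicate 2, and the second to −2.51 without δKO replicate 2 and to −0.93 without δKO replicate 1. Between TKO and δKO a log2FC of 0.48 (standard error 0.733) went to 1.67 without δKO replicate 2 and to 0.086 without δKO replicate 1. Without those 3 libraries it was −0.17, a comparison with the 1 δKO library left.

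Tapbp (ENSMUSG00000024308, chromosome 17, 33915899 to 33929292) was measured at 76.7, 78.0 and 101 CPM in WT, at 139, 63.3 and 118 CPM in δKO and at 89.0, 118 and 69.0 CPM in TKO. Its pattern was the opposite of that of Tap2, with the 3 highest values in the libraries of fewest genes detected, as had H2-D1, where 2.15% of all genes had this order. The log2FC of Tapbp was 0.11 in TKO against WT and −0.22 in TKO against δKO, each with a standard error of 0.326. The counting is not stated to use strand, and 212 exon bases of Tap1 overlap Psmb9, 533 of Tap2 overlap Gm15821, 904 of Tapbp overlap Gm19412 and 329 of Ciita overlap Dexi on the opposite strand, so reads there cannot be assigned to one gene.

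**Figure D3:**
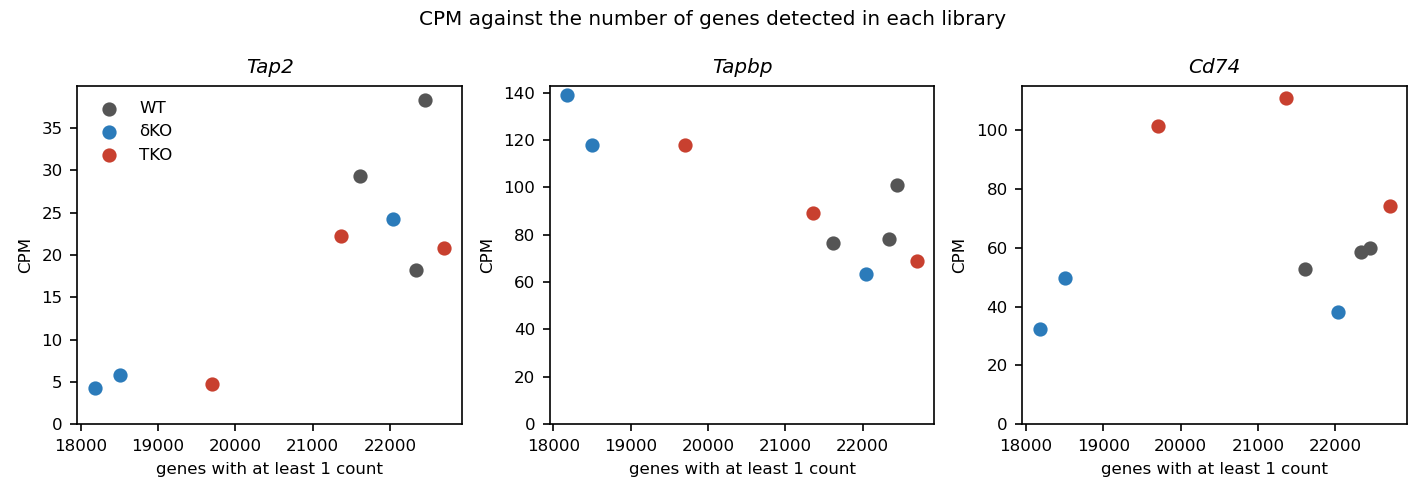
CPM of Tap2, Tapbp and Cd74 (vertical axes, linear from 0) against the genes detected (1 count or more) in each library (horizontal axes), with WT in grey, δKO in blue and TKO in red. The 3 libraries with 18180 to 19703 genes detected hold the lowest Tap2 (4.27 to 5.75 CPM) and the highest Tapbp (118 to 139 CPM), whereas the Cd74 of TKO replicate 2, at 102 CPM, lies with the other TKO libraries.

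Genes that supply and load class I peptides were read from a list of 15, all of which had enough counts. In TKO against δKO 5 were higher and 10 lower (median log2FC −0.09), and 4 were lower with an unadjusted p under 0.05, in a comparison in which 5.56% of all genes were. Those with the 3 smallest p were Hspa5, Calr and Npepps. Hspa5, the endoplasmic reticulum chaperone BiP, lay at 415 to 722 CPM in TKO against 809.6 to 1362 CPM in δKO and 839 to 1058 CPM in WT. Its TKO libraries were the lowest of the 9, with a log2FC of −1.02 against δKO (standard error 0.269, unadjusted p = 0.00273) and −0.72 against WT (standard error 0.268, unadjusted p = 0.0203). Calr, the chaperone calreticulin of the loading complex, had a log2FC of −1.21 against δKO (standard error 0.468, unadjusted p = 0.0246). It lay at 371 to 636 CPM in TKO and at 442 to 1993 CPM in δKO, with overlap, and the highest value was that of the unnumbered δKO library. Npepps, a cytosolic aminopeptidase, had a log2FC of −0.74 against δKO (standard error 0.298, unadjusted p = 0.0291). By edgeR 0 genes of this list were called, and both DESeq2 fits gave 0 of them an adjusted p under 0.05.

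The regulators numbered 22, among them the RFX, CREB and NF-Y subunits that occupy the X and Y boxes and the interferon receptors and their signal carriers. In TKO 13 were higher and 9 lower than in WT (median log2FC 0.06), and 9 were higher and 13 lower than in δKO (median −0.16). With an unadjusted p under 0.05 Irf4 was higher in both comparisons (1 of 22, against 1.68% and 4.6% of all genes), and 0 regulators had such a p in δKO against WT. Irf4, a transcription factor of lymphoid and myeloid cells, lay at 1.57 to 7.08 CPM in TKO against 0.00 to 0.57 CPM in δKO and 0.06 to 0.36 CPM in WT. Its 3 TKO libraries were the highest of the 9, and the log2FC was 4.21 against WT (standard error 1.77, unadjusted p = 0.0353) and 4.21 against δKO (standard error 1.76, unadjusted p = 0.0351), with 0 counts in 2 of the δKO libraries. DESeq2 on the groups compared gave it an adjusted p of 0.000763 against WT, in a fit that called 1.43% of all genes higher. By edgeR 0 regulators were called. Rfxank, an RFX subunit, lay at 3.05 to 5.57 CPM in TKO against 0.66 to 1.87 CPM in δKO and 2.40 to 2.91 CPM in WT, without overlap between genotypes. Against δKO it differed by a log2FC of 1.75 (standard error 0.861, unadjusted p = 0.0662). DESeq2 on all 9 libraries gave an adjusted p of 0.0251, in a fit that called 1.98% of all genes higher against δKO. Irf2, a factor at interferon-responsive promoters, lay at 75.4 to 92.8 CPM in TKO against 46.0 to 68.7 CPM in δKO and 46.9 to 69.7 CPM in WT, with a log2FC of 0.54 against WT (standard error 0.276, unadjusted p = 0.0744). For 6 regulators each TKO library exceeded each WT library, and for 2 each lay below, where 6.88% and 7.47% of all genes did. Against δKO these counts were 3 and 0, beside 6.98% and 4.74% of all genes. The 2 lower than in WT were Nfyc and Ifngr1, named after their values had been seen. Ifngr1, a chain of the interferon-gamma receptor, lay at 19.2 to 79.4 CPM in TKO against 88.7 to 230 CPM in WT and 8.70 to 272 CPM in δKO, with a log2FC of −1.61 against WT (standard error 0.874, unadjusted p = 0.0911). Creb1, which binds the X box region, differed by a log2FC of −0.61 between TKO and δKO (unadjusted p = 0.0550).

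Of 7 costimulators and checkpoint ligands, which T cells read beside the MHC, 6 had enough counts. Cd274, which encodes PD-L1, was measured at 28.6, 41.3 and 41.2 CPM in WT, at 52.9, 48.0 and 44.6 CPM in δKO and at 58.6, 79.0 and 51.0 CPM in TKO. The TKO and the δKO libraries were above all WT libraries, as were those of 6.88% (TKO) and 4.13% (δKO) of all genes. Another gene of the list, 1 of the 6, had all TKO libraries below all WT libraries, where 7.47% of all genes did. TKO exceeded WT by a log2FC of 0.76 (standard error 0.297, unadjusted p = 0.0252) and δKO exceeded WT by 0.39 (standard error 0.296, unadjusted p = 0.213). Pdcd1lg2 (PD-L2) was at 0.00 to 0.18 CPM in δKO and 0.29 to 5.52 CPM in TKO, with 0.03 to 1.19 CPM in WT. It was the gene of this list with the smallest unadjusted p against δKO (0.0164 by edgeR). DESeq2 on all 9 libraries gave it an adjusted p of 0.0242, in a fit that called 1.98% of all genes higher against δKO. By edgeR 0 of these genes were called, and 1 of the 6 was higher with an unadjusted p under 0.05 in each comparison with TKO, where 1.68% (against WT) and 4.6% (against δKO) of all genes were.

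**Figure D4:**
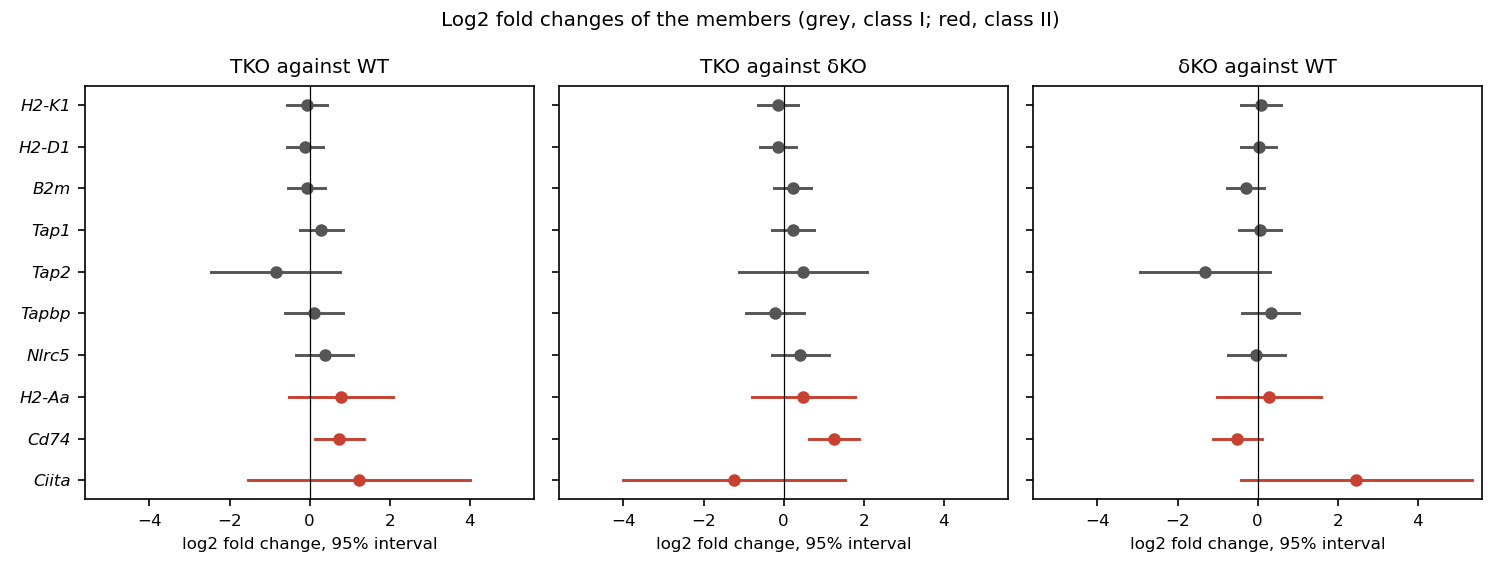
Log2 fold changes of the 10 genes in 3 comparisons of LT-HSCs (horizontal axes, points) with 95% intervals (lines) from edgeR's quasi-likelihood fit to 9 libraries, class I in grey and class II in red. The interval of Cd74 lies above 0 in both comparisons with TKO, those of the other 9 genes span 0, and those of Ciita and Tap2 are the widest.

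Across the comparisons 0 of the 10 members were called by edgeR in any comparison, and Cd74 was the 1 member with an unadjusted p under 0.05, in TKO against δKO and in TKO against WT. With all libraries of one genotype on one side, 2 of the 10 members, H2-Aa and Cd74, were higher in TKO than in WT (6.88% of genes). Cd74 was the 1 member higher in TKO than in δKO (6.98% of genes), and B2m and Cd74 were the 2 lower in δKO than in WT (7.39% of genes). In the other directions 0 members were lower in TKO than in WT or δKO, where 7.47% and 4.74% of genes were, and 0 were higher in δKO than in WT, where 4.13% were. An unadjusted p under 0.05 was held by 0 members lower in TKO than in WT (2.5% of genes) and by 0 members higher in δKO than in WT (3.65% of genes). DESeq2 called 1 of 10, Cd74 in TKO against δKO, and 0 of 10 in the comparisons with WT, where on all 9 libraries it called 0.353% of genes higher and 0.296% lower in TKO, and 0.367% higher and 0.678% lower in δKO. For the 7 class I members the median log2FC was −0.06 for TKO against WT, 0.23 for TKO against δKO and 0.03 for δKO against WT, and the 3 class II members of 0.77, 0.49 and 0.28. As the mean of log2 CPM centered on the 9 libraries, the class I members were at 0.03 ± 0.084 in TKO, −0.14 ± 0.14 in δKO and 0.11 ± 0.094 in WT (SD, n = 3). The class II members were at 0.60 ± 0.39, −0.13 ± 1.21 and −0.47 ± 0.71, in the same order, and the libraries of the genotypes overlapped. In the class I mean the 3 δKO libraries lay below the 3 WT libraries, and TKO overlapped both. The members did not share this direction. For δKO against WT the log2FC was positive for 4 of the 7 and negative for 3, from −1.32 (Tap2) to 0.33. Tap2 was at 4.27 CPM in δKO replicate 1 and 5.75 CPM in the unnumbered δKO library, against 18.2 to 38.3 CPM in WT. The class I mean without Tap2 was not tested. Ciita varied 48.6-fold over the libraries, against 8.37-fold for H2-Aa and 3.43-fold for Cd74, so the class II mean follows Ciita most. It was highest in δKO replicate 1 (1.21), where Cd74 was lowest. By Pearson correlation of log2 CPM, the gene most like the class II mean over the 9 libraries was Kcnk5, a potassium channel (r = 0.98 across 9 libraries), followed by Myh10, Ypel1, Zfp57 and Otulin (0.94 to 0.95). The one most like the class I mean was 2610035D17Rik (r = 0.96), followed by Fam69b, Unc13a, Slc37a4 and Gm43423 (0.93 to 0.94). They were the best of 10766 genes searched, so these values are selected and describe these libraries alone.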

How the data were processed

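RNA of sorted LT-HSCs was amplified with the Ovation RNA-Seq System V2 and sequenced on a HiSeq2000 in 2 technical runs per library. Per the labels and the paper's methods, the authors trimmed reads with Trim Galore 0.3.7, aligned them to mm10 with STAR 2.5.1b and deposited raw counts per gene, which were used here; their normalized values were not used. The annotation release and how runs were joined are not given in the sources used here. Columns were matched to genotypes by name. Of 47643 identifiers 47224 received a symbol, and coordinates are from GENCODE M21 (GRCm38).

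In R 4.3.3, genes were kept by filterByExpr (count minimum 10, total 15). Then edgeR 4.0.16 was fitted to all 9 libraries with TMM factors, a mean for each genotype and 6 residual degrees of freedom. Tests were two-sided, with Benjamini-Hochberg adjustment over 18205 genes. The common BCV, edgeR's estimate of the variation between libraries beyond counting error, was 0.805. As recipients were pooled, it does not measure variation between mice. Alternatives were RLE and upper-quartile factors, no filter, the replicate number as a block, DESeq2 1.42.0 on 9 libraries or on the groups compared, genes detected as a covariate and each library left out. After the data were examined, the 3 libraries with the fewest genes detected were left out together, which leaves 1 δKO library. Members and lists were chosen with earlier results of these data known. Wider lists name at most the 3 genes with the smallest p per comparison, and exceptions are stated. Counting intervals are not given, since the spread between libraries far exceeds counting error. Python 3.11.15 with matplotlib 3.10.9 made the figures.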

Additional observations from a re-analysis of the deposited data

How the results depend on the processing

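With 3 libraries per genotype, edgeR's test made few calls and DESeq2 many. In counts simulated for TKO against WT with edgeR's estimates of the spread, a far larger share of DESeq2's calls were false. In TKO against WT the count of called genes went from 1 to 125 with DESeq2 on all 9 libraries, 574 with DESeq2 on the groups compared, 38 without the 3 libraries of fewest genes detected, and 1 to 4 with each library left out (4 without δKO replicate 1). In TKO against δKO it went from 0 (1851 genes with an unadjusted p under 0.05) to 551 and 267 with the DESeq2 fits, and was 0 with each library left out. In δKO against WT it went from 1 to 191 and 194, and was 1 with each library left out. Of 510 log2 fold changes of members under alternatives, 464 kept their direction and side of the threshold, 44 changed sign and 2 passed the threshold, those of Cd74 in TKO against δKO with DESeq2 (1.24 on all 9 libraries and 1.24 on the groups compared). The sign of Cd74 did not change under any alternative run.

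With the replicate number as a block, in the 8 numbered libraries, the counts of called genes were 1, 0 and 1, the log2 fold change of Tap2 in TKO against δKO was −0.25, and in δKO against WT that of H2-D1 was −0.039 and that of Nlrc5 0.22. Same-numbered libraries correlated by −0.036 to 0.083 in their deviations from the genotype means, and differently numbered ones by −0.092 to 0.087. Pairing by number was therefore not seen, although so few libraries make this a weak check. The block changed no call.

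Leaving out the 3 libraries of fewest genes detected leaves δKO with 1 library (replicate 2), assumed to vary like the other genotypes, so its comparisons with δKO below describe that library. In TKO against δKO, upper-quartile factors, which moved the median of all genes by 0.14, gave 0.026 for H2-K1. The covariate gave 0.052 for H2-K1, −0.34 for Tap2, 0.25 for Tapbp and 0.23 for Ciita, and leaving out the 3 libraries gave 0.12, −0.17, 0.32 and 1.44, with −0.11 for B2m. In δKO against WT, upper-quartile factors (median moved by −0.15) gave −0.11 for H2-K1, −0.14 for H2-D1 and −0.11 for Tap1. The covariate gave −0.21, −0.15 and −0.079 for these, −0.41 for Tapbp and −0.14 for H2-Aa, and leaving out the 3 libraries gave −0.27, −0.10, −0.025, −0.43 and −0.14. DESeq2 on the groups compared gave 0.0080 for Nlrc5. In TKO against WT Tapbp went to −0.16 with the covariate and −0.11 without the 3 libraries.

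With each library left out, signs changed within these ranges. In TKO against WT B2m ranged from −0.26 to 0.038 and Tapbp from −0.11 to 0.28. In TKO against δKO H2-K1 ranged from −0.29 to 0.094, Tapbp from −0.49 to 0.017 and Ciita from −1.95 to 1.50. In δKO against WT H2-K1 ranged from −0.16 to 0.23, H2-D1 from −0.031 to 0.090, Tap1 from −0.065 to 0.16, Nlrc5 from −0.44 to 0.21, H2-Aa from −0.73 to 0.75 and Ciita from −0.27 to 4.08. The cause of these changes was not tested beyond the libraries named.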
